A study of Mus musculus with 9 samples.

Results

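The 10 genes described here encode the interferon gamma receptor, its kinases and the regulators read out downstream of it: the receptor chains Ifngr1 and Ifngr2, the Janus kinases Jak1 and Jak2, the interferon regulatory factors Irf1, Irf2, Irf8 and Irf9, and the inhibitors Socs1 and Socs3. They were taken by gene symbol from the 16509 genes of the expression table, where each has a single row, and all 10 passed the filter on low counts that left 11949 genes for testing. MC38 is a mouse colon carcinoma line, used here as 1 line in culture. Ctrl cells received vehicle (DMSO in the sample labels, PBS in the study's own description), Cu-Cys cells received copper chloride with cystine, and Cadict cells received a nanodrug in which copper and cystine are assembled with glucose oxidase and a lipid carrying the EGFR-binding peptide GE11. Cadict therefore differed from Cu-Cys by at least the enzyme and the lipid with its peptide together. The study describes particles formed by copper and cystine alone, and whether Cu-Cys was given as such particles is not clear. The dose and time of the sequenced cells are not given in the sources used here. Each group had 3 libraries, for which the labels name no separate cultures, so p-values measure the spread between these libraries.

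Interferon gamma binds IFNGR1, which recruits IFNGR2, and the kinases JAK1 and JAK2 held on the cytoplasmic tails of the chains then phosphorylate STAT transcription factors. STAT dimers bind GAS elements and switch on IRF1, which activates a second layer of genes through interferon-stimulated response elements (ISRE), while IRF2 binds much the same elements and often opposes it. IRF9 is the DNA-binding subunit of the complex used by type I interferon, IRF8 is a factor mainly of myeloid and lymphoid cells, and SOCS1 and SOCS3 are induced inhibitors that bind JAKs or receptor tails. By gene set enrichment on its RNA-seq data, the study reported type II interferon signalling as enriched in Cu-Cys and Cadict cells alike. No such enrichment was run here, and the changes of single genes below are another measure. The study then asked whether this signalling takes part in the rise of PD-L1 protein on treated cells. Ruxolitinib did not prevent the rise and added interferon gamma increased it, and the study called the rise independent of this signalling. The gene for PD-L1 was not analysed here.

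The promoter windows below show where GAS and ISRE letters lie in those of the 10 genes that hold them, and the share of each motif among all genes follows. Each was cut from a RefSeq promoter of the gene (250 bases before to 50 after the transcription start, GRCm38.p6, 5′ to 3′ on the strand of the gene), and capitals mark the motif letters. Irf1 at chr11:53769894-53769962 and Irf2 at chr8:46739495-46739559 are on the plus strand, as is Irf8 at chr8:120736157-120736243, and Socs1 at chr16:10785575-10785649 and Socs3 at chr11:117969482-117969550 are on the minus strand.
Irf1: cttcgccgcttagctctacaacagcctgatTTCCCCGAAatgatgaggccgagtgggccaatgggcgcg
Irf2: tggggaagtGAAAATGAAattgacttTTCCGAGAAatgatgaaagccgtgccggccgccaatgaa
Irf8: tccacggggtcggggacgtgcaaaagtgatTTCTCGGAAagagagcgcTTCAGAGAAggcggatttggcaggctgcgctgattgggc
Socs1: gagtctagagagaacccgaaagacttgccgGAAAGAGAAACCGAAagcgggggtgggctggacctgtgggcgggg
Socs3: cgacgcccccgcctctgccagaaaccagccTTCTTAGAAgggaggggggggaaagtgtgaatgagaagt

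The GAS letters searched were TTCNNNGAA, which read the same on both strands, and the ISRE core was GAAANNGAA on either strand. GAS matches lay in Irf1 (bases -90 to -82 from the start), Irf2 (-224 to -216), Irf8 (-171 to -163 and -153 to -145) and Socs3 (-154 to -146), or 4 of the 10 genes, while 9.55% of the 27025 genes with a promoter held one. ISRE core matches lay in Irf2 (-241 to -233) and Socs1 (-83 to -75 and -77 to -69, overlapping by 3 bases), or 2 of the 10 genes against 9.76% of all genes. RefSeq gave Irf1, Irf8 and Irf9 2 promoters each, all of which were searched, and the matches in Irf1 and Irf8 lay in only 1 of them. The narrower TTCCNGGAA was in none of the promoters of the 10 genes and in 1.35% of all genes, and no match says only that these letters are not in this window.

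The 9 libraries held 17905769 to 18293060 counts. The 100 most abundant genes took 17.2% to 17.4% of the counts in Ctrl, at most 18.2% in Cu-Cys and 29.8% to 31.1% in Cadict, and the scaling factors by the trimmed mean of M values (TMM) were 1.26 to 1.27, 1.21 and 0.640 to 0.665. Scaling by library totals in place of TMM lowered the median gene of Cadict against Ctrl by 0.95 on the log2 scale and DESeq2 size factors raised it by 0.12, so each change below is relative to a scaling and is given under the others where it turned. The 6 epithelial markers measured, of 8 listed, summed to 5.32 to 6.83 CPM in Ctrl, 3.97 to 4.38 in Cu-Cys and 24.0 to 26.1 in Cadict. Epcam was at 0 counts in every Ctrl and Cu-Cys library, Krt18 at 0 or 1, Vil1 at 0 to 3 and Krt8 at 1 to 5, whereas Krt19 had 14 to 33 there and 119 to 131 in Cadict and Cdh1 had 65 to 152 over all libraries. The 4 fibroblast markers summed to 617.4 to 644.8 CPM in Ctrl, 340.5 to 348.6 in Cu-Cys and 132.9 to 145.4 in Cadict, with Col1a2 at 12782 to 13496, 6713 to 7011 and 1350 to 1520 counts. The fibroblast sum was thus lower and the epithelial sum higher in Cadict than in Ctrl, and their part in the changes below was not tested. The leukocyte gene Ptprc had 1 to 4 counts per library. In bulk RNA, a lower level in every cell and fewer cells with the transcript cannot be told apart.

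Per unit of length, Ctrl cells held the axis in a steep order of levels. Mean TPM values, which are scaled to transcript length and library size, were 78.7 ± 1.32 (SD, n = 3) for Jak1, 63.6 ± 2.52 for Ifngr1, 57.9 ± 3.45 for Irf1 and 42.9 ± 0.408 for Ifngr2. Below them came Irf2 at 31.6 ± 1.84 TPM, Socs3 at 23.3 ± 2.06, Jak2 at 19.8 ± 0.596, Irf9 at 8.51 ± 0.333, Socs1 at 8.41 ± 0.835 and Irf8 at 0.417 ± 0.0666. Only Irf9 and Socs1, of the neighbours in that order, had overlapping libraries. In Cu-Cys cells the order was the same except that Socs1 (7.60 ± 0.401 TPM) stood above Irf9 (5.55 ± 0.987 TPM), with no overlap.

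In Cadict cells the order of TPM levels was different at the top and in the middle. Irf2 (22.6 ± 4.04 TPM) and Jak1 (19.3 ± 3.20 TPM) came first with overlapping libraries, followed by Ifngr2 at 8.05 ± 0.438 TPM. Socs3 (6.20 ± 1.0 TPM), Jak2 (5.22 ± 0.691 TPM) and Ifngr1 (5.003 ± 1.2 TPM) each overlapped the next. Irf1 (1.73 ± 0.234 TPM) and Irf9 (1.297 ± 0.219 TPM) did not overlap, and Socs1 (0.420 ± 0.270 TPM) and Irf8 (0.297 ± 0.125 TPM) did. Irf1 thus went from rank 3 to rank 7 of the 10 genes, Ifngr1 from rank 2 to rank 6 and Irf2 from rank 5 to rank 1. Deposited FPKM gave every gene the same rank in each group. Within a library TPM is FPKM times 1 factor, so these equal ranks add no separate support.

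**Figure D1:**
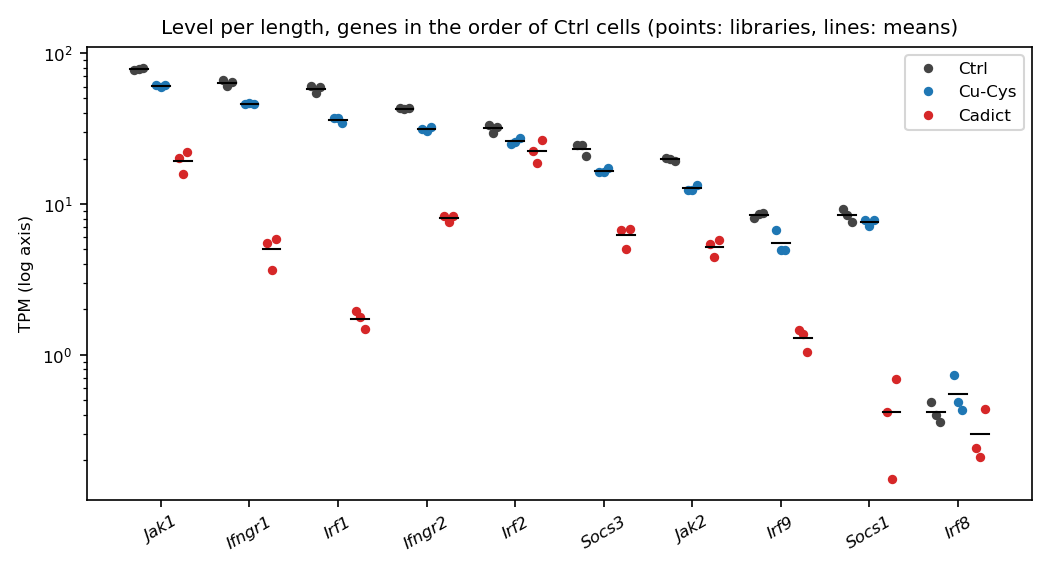
TPM on a log axis for the 10 genes in the order of their Ctrl levels, with each library as a point and group means as lines. Irf1 went from 57.9 TPM in Ctrl to 1.73 in Cadict and Ifngr1 from 63.6 to 5.003, and Irf2 from 31.6 to 22.6, although Irf2 was higher in Cadict under TMM scaling.

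Cadict lowered 8 of the 10 genes against Ctrl and raised 2 (edgeR's quasi-likelihood test, Benjamini-Hochberg adjusted p of at most 0.05 over 11949 genes). Of all genes, 47.1% were lower and 40.6% higher. Under library totals the same 8 were lower, as were 8730 of the 11949 genes, and Irf2 and Irf8 no longer passed. The study's own threshold, a fold of at least 2 with an adjusted p of at most 0.001, was met by 5 of the 10 genes (Ifngr1, Ifngr2, Irf1, Irf9 and Socs1), against 47.8% of all genes. The Cadict and Ctrl libraries did not overlap for any of the 10 genes, which was also the case for 87.5% of all genes. The median log2 fold change was -0.92 over the 10 genes and -0.13 over all genes. With so large a background, the counts did not set these genes apart from the transcriptome, and the sizes of the single changes follow.

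**Figure D2:**
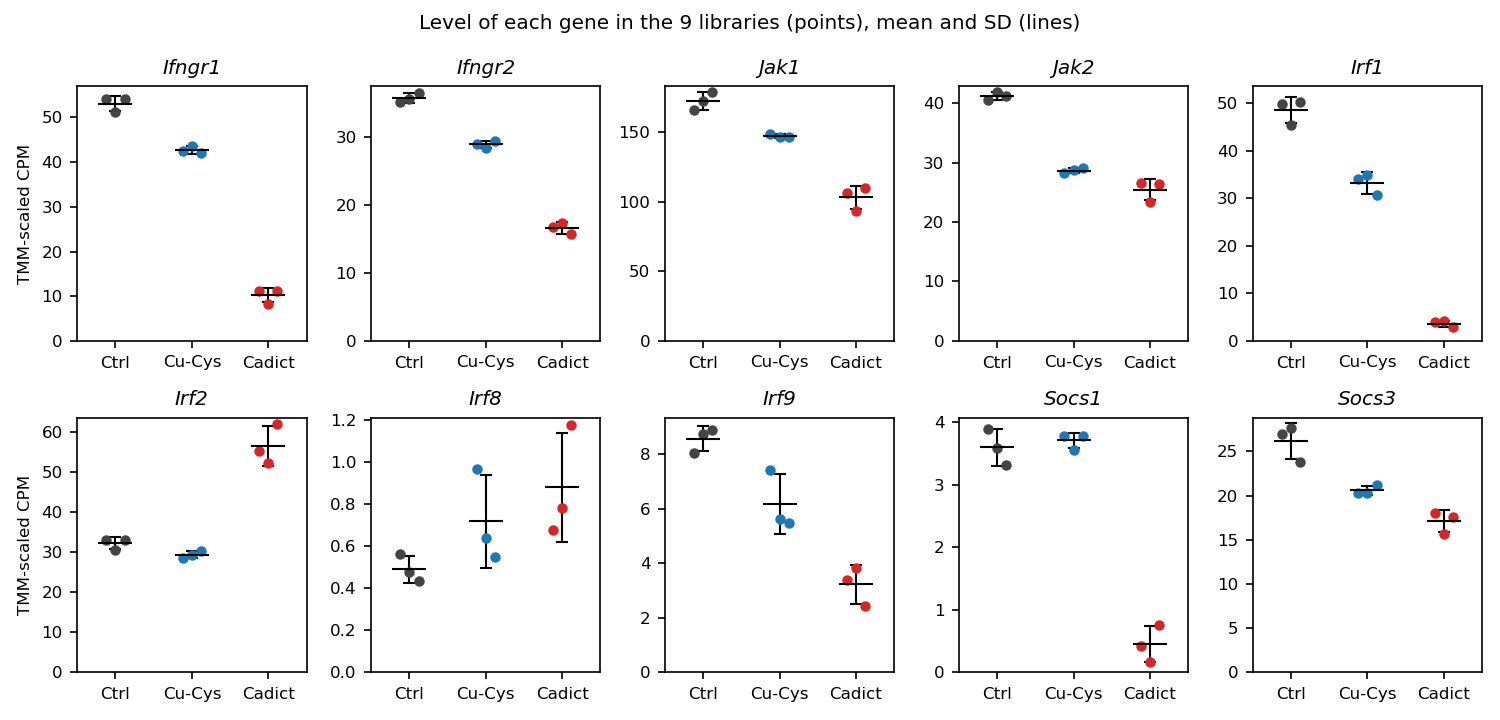
TMM-scaled CPM (linear axis from 0) for each of the 10 genes, with libraries as points and mean and SD as lines, for Ctrl, Cu-Cys and Cadict. Ifngr1, Irf1 and Socs1 in Cadict sit far below both other groups, and Irf2 in Cadict sits above them, which was not so under library totals.

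Ifngr1, the ligand-binding chain, was at 54.0, 51.2 and 54.0 CPM (counts relative to the TMM-scaled library size) in the 3 Ctrl libraries, at 42.4, 43.6 and 42.1 in Cu-Cys and at 11.1, 8.36 and 11.2 in Cadict. Every Cadict library was below every Cu-Cys library, and every Cu-Cys library below every Ctrl library. Ifngr1 was 5.19-fold lower in Cadict than in Ctrl (log2 fold change -2.37, SE 0.086, edgeR adjusted p = 5.1e-13), and 8.07% of all genes had a lower value. Cu-Cys lowered it by less, at a log2 fold change of -0.31 (SE 0.065, edgeR adjusted p = 0.00128).

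Ifngr2, the chain that brings JAK2 to the receptor, was at 35.1, 35.5 and 36.4 CPM in Ctrl, at 28.9, 28.3 and 29.4 in Cu-Cys and at 16.7, 17.3 and 15.7 in Cadict. Here too the 3 groups stood apart in the same order. Its log2 fold change was -1.10 in Cadict (SE 0.066, edgeR adjusted p = 2.1e-10) and -0.31 in Cu-Cys (SE 0.057, edgeR adjusted p = 5.2e-04). Between the treatments, Cadict was lower than Cu-Cys by a log2 fold change of -2.06 for Ifngr1 (edgeR adjusted p = 4.2e-12) and -0.80 for Ifngr2 (edgeR adjusted p = 1.8e-08).

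The kinases moved less than Ifngr1 in Cadict, though Jak2 moved more than Ifngr1 in Cu-Cys. Jak1, which is shared by many cytokine receptors, was at 166.1, 172.8 and 179.0 CPM in Ctrl, at 149.1, 146.5 and 146.7 in Cu-Cys and at 106.1, 93.7 and 109.8 in Cadict. Its groups did not overlap, and its log2 fold change was -0.74 in Cadict (SE 0.059, edgeR adjusted p = 6.8e-09) and -0.23 in Cu-Cys (SE 0.056, edgeR adjusted p = 0.00437). Cadict was below Cu-Cys by a log2 fold change of -0.51 (edgeR adjusted p = 6.6e-07).

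Jak2, the kinase bound to IFNGR2, was at 40.5, 41.9 and 41.3 CPM in Ctrl, at 28.2, 28.7 and 29.1 in Cu-Cys and at 26.5, 23.3 and 26.4 in Cadict. Both treatments were clear of Ctrl, and under TMM scaling they were close to each other. The log2 fold change against Ctrl was -0.70 in Cadict (SE 0.064, edgeR adjusted p = 4.4e-08) and -0.52 in Cu-Cys (SE 0.059, edgeR adjusted p = 6.7e-06). Cadict was lower than Cu-Cys by a log2 fold change of -0.17 (edgeR adjusted p = 0.0249), a call that was lost with DESeq2 size factors (-0.079, adjusted p = 0.275), by the DESeq2 Wald test (-0.13, adjusted p = 0.279), without Cu-Cys library 3 (-0.17, adjusted p = 0.0586) and without Cadict library 2 (-0.12, adjusted p = 0.122). Under library totals the same difference was -1.06 (adjusted p = 4.6e-10).

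Irf1, the transcription factor that interferon gamma induces first, changed more than the other 9 genes in Cadict. It was at 49.9, 45.3 and 50.2 CPM in Ctrl, at 34.1, 34.9 and 30.7 in Cu-Cys and at 3.91, 4.09 and 2.85 in Cadict, where these levels rest on 46, 47 and 34 counts. The 3 groups did not overlap. Irf1 was 13.4-fold lower in Cadict than in Ctrl (log2 fold change -3.74, SE 0.11, edgeR adjusted p = 5.8e-14), a value below which only 1.77% of all genes lay. In Cu-Cys its log2 fold change was -0.54 (SE 0.071, edgeR adjusted p = 2.8e-05), and Cadict was 9.18-fold below Cu-Cys (edgeR adjusted p = 7.5e-13). The antisense gene Gm17334 covers 3.40% of the exonic bases of Irf1, and whether the counting used strand is not given in the sources used here.

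Irf2, the factor that competes with IRF1, went the other way under TMM scaling. It was at 33.1, 30.5 and 33.1 CPM in Ctrl, at 28.5, 29.3 and 30.2 in Cu-Cys and at 55.1, 52.1 and 61.9 in Cadict. Every Cadict library was above the other 6. The log2 fold change in Cadict against Ctrl was 0.81 (SE 0.069, edgeR adjusted p = 1.8e-08), but -0.14 under library totals (adjusted p = 0.0787) and -0.48 by limma on log2 of TPM with a pseudocount of 1 (adjusted p = 0.00502). As raw counts it had 765, 704 and 759 in Ctrl and 649, 598 and 737 in Cadict, so its level relative to the bulk of the transcriptome rose while its share of the library did not. In Cu-Cys the change missed the threshold, at a log2 fold change of -0.14 with a 95% interval of -0.28 to 0.01 (edgeR adjusted p = 0.124). Cadict was above Cu-Cys by 0.94 under TMM scaling (edgeR adjusted p = 3.5e-09) and by 0.06 under library totals (adjusted p = 0.462).

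Irf8 was near the floor of detection in all groups. It had 13, 11 and 10 counts in Ctrl, 21, 14 and 12 in Cu-Cys and 8, 9 and 14 in Cadict, which scaled to 0.562, 0.476 and 0.436 CPM, to 0.969, 0.640 and 0.547 and to 0.680, 0.784 and 1.18. The scaled Cadict and Ctrl libraries did not overlap, whereas the raw counts did. The log2 fold change of 0.83 in Cadict (SE 0.36, edgeR adjusted p = 0.0402) was -0.11 under library totals (adjusted p = 0.773). The call was lost in 5 of the 9 fits that left out 1 library, namely Ctrl 2 (0.81, adjusted p = 0.0822), Ctrl 3 (0.75, adjusted p = 0.0983), Cu-Cys 2 (0.83, adjusted p = 0.0520), Cadict 2 (0.91, adjusted p = 0.0541) and Cadict 3 (0.56, adjusted p = 0.226). In Cu-Cys its log2 fold change was 0.54 with a 95% interval of -0.16 to 1.24 (edgeR adjusted p = 0.189), and Cadict differed from Cu-Cys by 0.29 with an interval of -0.43 to 1.02 (edgeR adjusted p = 0.422).

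Since IRF8 marks myeloid cells, their markers are given beside it. The 5 macrophage and dendritic cell markers measured, of 7 listed, summed to 3.25 to 3.59 CPM in Ctrl, 2.29 to 2.77 in Cu-Cys and 16.1 to 19.0 in Cadict. Cd68, a lysosomal protein, made up most of this with 68 to 72, 47 to 57 and 181 to 214 counts, while the defining markers Csf1r, Itgam and Flt3 had at most 4 counts in any library. The part of this list in the Irf8 value was not tested.

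Irf9, the DNA-binding subunit of the type I interferon complex, was at 8.04, 8.74 and 8.89 CPM in Ctrl, at 7.43, 5.62 and 5.47 in Cu-Cys and at 3.40, 3.83 and 2.43 in Cadict. Cu-Cys library 1 lay close to Ctrl, but no groups overlapped. Irf9 was 2.66-fold lower in Cadict (log2 fold change -1.41, SE 0.17, edgeR adjusted p = 9.1e-07) and had a log2 fold change of -0.47 in Cu-Cys (SE 0.13, edgeR adjusted p = 0.00735). Cadict was below Cu-Cys by a log2 fold change of -0.94 (edgeR adjusted p = 1.4e-04). Of the 50-base stretches of Irf9 transcripts, 1.82% also occur in other genes, the highest share among the 10 genes, and Rnf31 on the same strand covers 2.28% of its exonic bases.

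The inhibitors of the pathway parted between the treatments. Socs1, which binds JAKs and blocks them, had 90, 83 and 76 counts in Ctrl, 82, 78 and 83 in Cu-Cys and 5, 2 and 9 in Cadict, or 3.89, 3.59 and 3.31 CPM, 3.78, 3.57 and 3.78 CPM, and 0.425, 0.174 and 0.755 CPM. Ctrl and Cu-Cys overlapped, and all 3 Cadict libraries were below both. Socs1 was 7.81-fold lower in Cadict than in Ctrl (log2 fold change -2.97, SE 0.29, edgeR adjusted p = 6.9e-08), on few counts, and lower still without Cadict library 3 (log2 fold change -3.55, adjusted p = 4.8e-08). In Cu-Cys its log2 fold change was 0.04 with a 95% interval of -0.28 to 0.37 (edgeR adjusted p = 0.840), which turned to -0.02 under library totals (adjusted p = 0.910) and to -0.01 without Ctrl library 3 (adjusted p = 0.970). Cadict was 8.05-fold below Cu-Cys (edgeR adjusted p = 6.2e-08).

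Socs3, which binds both JAKs and the tail of gp130 and related receptors, was at 27.0, 27.7 and 23.8 CPM in Ctrl, at 20.3, 20.3 and 21.2 in Cu-Cys and at 18.1, 15.7 and 17.6 in Cadict. The groups did not overlap. Its log2 fold change was -0.61 in Cadict (SE 0.082, edgeR adjusted p = 3.9e-06) and -0.34 in Cu-Cys (SE 0.073, edgeR adjusted p = 0.00148). Cadict was below Cu-Cys by -0.27 on the log2 scale (edgeR adjusted p = 0.00847), which was -0.17 with DESeq2 size factors (adjusted p = 0.0669).

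**Figure D3:**
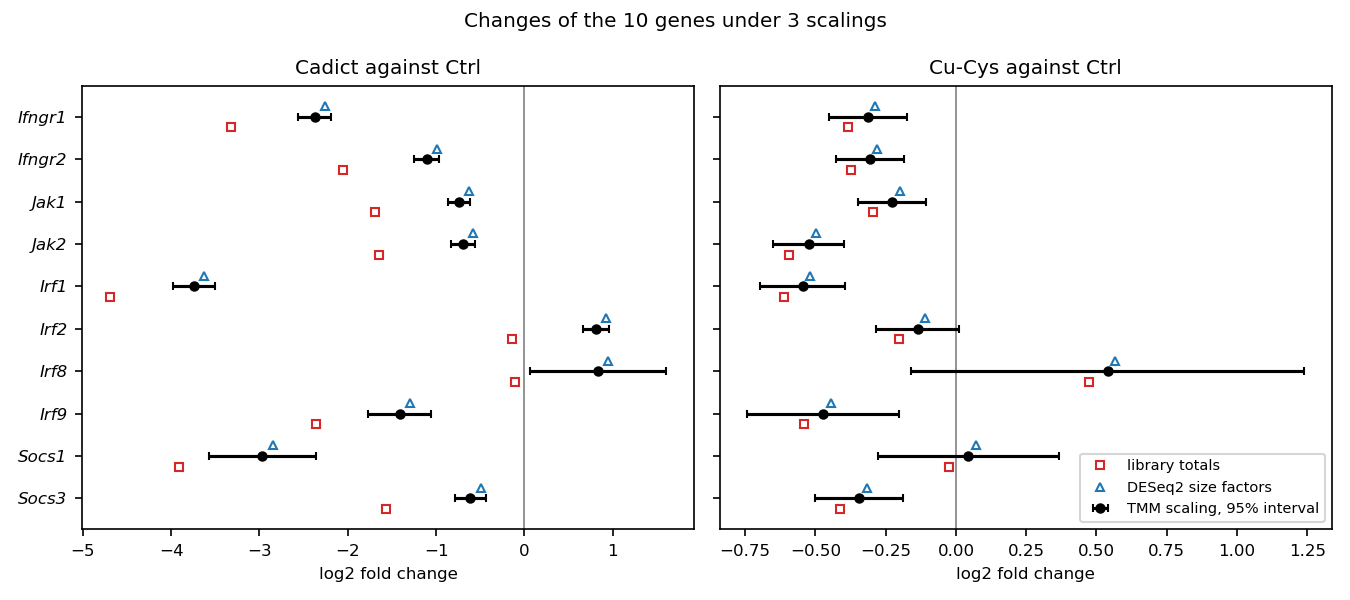
Log2 fold changes of the 10 genes against Ctrl in Cadict (left) and Cu-Cys (right), with TMM estimates as filled points with 95% intervals, library totals as squares and DESeq2 size factors as triangles. Library totals moved every Cadict value down by about the same amount, which took Irf2 from 0.81 to -0.14 and Irf8 from 0.83 to -0.11, and took Socs1 in Cu-Cys from 0.04 to -0.02.

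In Cu-Cys against Ctrl, 7 of the 10 genes were lower and 0 higher by edgeR's quasi-likelihood test at an adjusted p of at most 0.05, beside 22.4% of all genes lower and 22.6% higher. The count of 0 higher was the same at an unadjusted p of at most 0.05 and by the DESeq2 Wald test. Irf2, Irf8 and Socs1 were the 3 that did not pass. None of the 10 met the 2-fold threshold, which 1.64% of all genes did. The libraries of the 2 groups did not overlap for 8 genes, against 61.2% of all genes, and the median log2 fold change was -0.31 over the 10 genes and 0.01 over all genes. The 7 that passed had log2 fold changes of -0.54 to -0.23, with Irf1 and Jak2 at the low end.

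Compared with Cu-Cys, Cadict cells had 8 of the 10 genes lower and 1, Irf2, higher, beside 45.6% of all genes lower and 40.3% higher, and under library totals Irf2 no longer passed. Ifngr1, Irf1 and Socs1 met the 2-fold threshold, which 42.2% of all genes met. The libraries did not overlap for 9 of the 10 genes and for 85.0% of all genes, and the median log2 fold change was -0.66 over the 10 genes and -0.10 over all genes. The 3 comparisons share libraries in pairs and are not independent of each other.

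Ratios of 2 genes within a library do not depend on how libraries are scaled, and 6 pairs were followed in 3 comparisons, 18 tests in all. With 3 libraries against 3, the exact two-sided permutation test cannot go below p = 0.1 (0.12 after Benjamini-Hochberg adjustment), so each ratio below is given by its libraries. Ifngr1 to Ifngr2 was 1.54, 1.44 and 1.49 in Ctrl, 1.47, 1.54 and 1.43 in Cu-Cys and 0.665, 0.482 and 0.711 in Cadict. The receptor chains thus kept their ratio in Cu-Cys within the spread of the libraries, and in Cadict Ifngr1 fell below Ifngr2 in all 3 libraries, a 2.44-fold lower ratio than in Ctrl (exact permutation p = 0.1).

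Jak1 to Jak2 was 4.10, 4.12 and 4.34 in Ctrl, 5.29, 5.10 and 5.04 in Cu-Cys and 4.003, 4.011 and 4.152 in Cadict. Here Cu-Cys stood apart, while Ctrl and Cadict overlapped, with a log2 difference of -0.05 (SE 0.031, exact permutation p = 0.3). Irf1 to Irf2 was 1.51, 1.49 and 1.52 in Ctrl, 1.198, 1.192 and 1.015 in Cu-Cys and 0.0709, 0.0786 and 0.0461 in Cadict. Ctrl cells thus held more Irf1 than Irf2 counts, and Cadict cells held far fewer, a 23.7-fold lower ratio that did not overlap with either other group (exact permutation p = 0.1).

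Irf9 to Irf1 was 0.161, 0.193 and 0.177 in Ctrl, 0.218, 0.161 and 0.178 in Cu-Cys and 0.870, 0.936 and 0.853 in Cadict. Irf9 therefore fell less than Irf1 in Cadict, with a 5.01-fold higher ratio (exact permutation p = 0.1). Irf8 to Irf1 averaged 0.0102 in Ctrl, 0.0215 in Cu-Cys and 0.259 in Cadict, on the few Irf8 counts given above. Socs1 to Socs3 was 0.144, 0.130 and 0.139 in Ctrl, 0.186, 0.176 and 0.178 in Cu-Cys and 0.0235, 0.0111 and 0.0429 in Cadict, so that the ratio was above Ctrl in each Cu-Cys library and below it in each Cadict library.

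**Figure D4:**
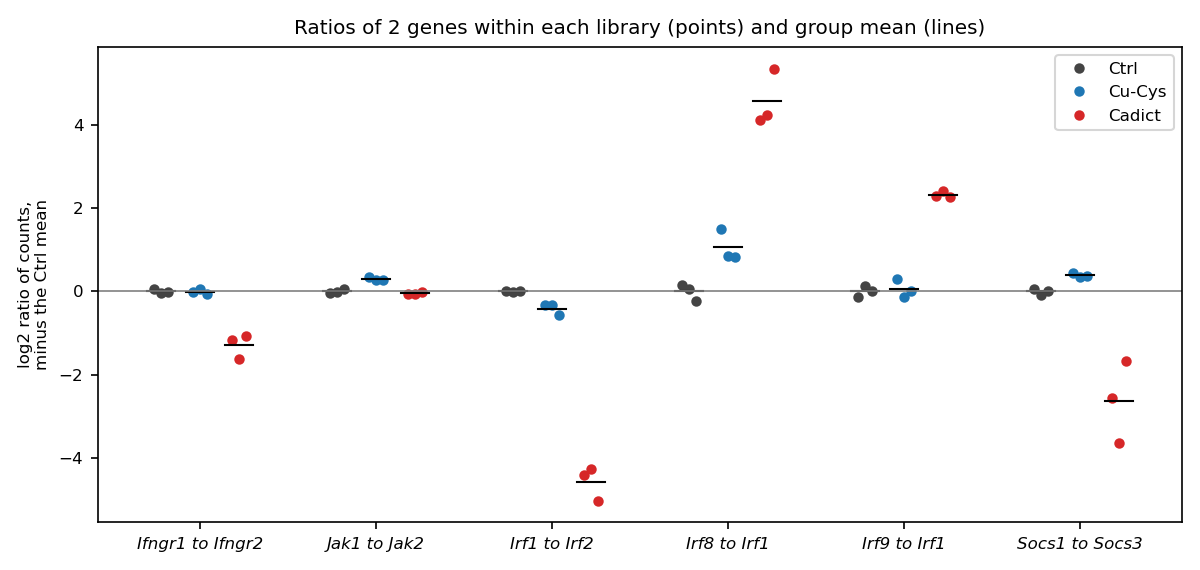
Log2 ratio of the counts of 2 genes in each library (points) after subtracting the Ctrl mean, with group means as lines, for 6 pairs. In Cadict the Irf1 to Irf2 ratio lay 4.56 below Ctrl and the Ifngr1 to Ifngr2 ratio 1.28 below, while Jak1 to Jak2 overlapped with Ctrl.

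The genes with the course most like that of Irf1 over the 9 libraries, by Euclidean distance in log2 CPM centred on the Ctrl mean among 8544 genes, were Tgfb3 (distance 0.358), Fbxw5 (0.430) and Parp9 (0.463). Their log2 fold changes in Cadict against Ctrl were -3.90, -3.71 and -3.65. For Ifngr1 they were Ehd2 (0.176), Depdc5 (0.187) and Fbxo5 (0.193), at -2.38, -2.38 and -2.40. The distance was taken over the same libraries, so values close to those of Irf1 and Ifngr1 follow from the choice.

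The other genes of the pathway were counted in 6 lists, by edgeR's quasi-likelihood test at an adjusted p of at most 0.05. Of 8 other JAK and STAT genes tested, 7 were lower in Cadict than in Ctrl and 1 higher, with a median log2 fold change of -2.44, and 5 were lower in Cu-Cys with 3 not passing, beside 47.1% and 22.4% of all genes lower. Under library totals all 8 were lower in Cadict, as were 8730 of the 11949 genes. Tyk2, the kinase of type I interferon receptors, was at 23.1 ± 1.69 CPM in Ctrl and 4.18 ± 0.387 in Cadict (log2 fold change -2.47, adjusted p = 5.8e-12), and Stat5b was at 51.1 ± 0.813 and 22.7 ± 2.28 (-1.17, adjusted p = 1.9e-10). Each of the 3 other interferon regulatory factors tested was lower in Cadict, Irf3 by the least (-0.33, adjusted p = 0.00870), and 2 of the 3 passed with DESeq2 size factors.

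Other receptor chains that signal through JAKs were lower in Cadict in 6 of 10 cases and higher in 3, near the 47.1% and 40.6% of all genes, with a median log2 fold change of -0.79. Under library totals 8 were lower and 1 higher, with a median of -1.74. Of all 11949 genes, 8730 were lower and 2161 higher under that scaling, with the median gene at -1.08. Ifnar1, a chain of the type I interferon receptor, fell from 59.5 ± 1.25 to 12.1 ± 0.737 CPM in Cadict (-2.29, adjusted p = 5.0e-14), close to the change of Ifngr1. Il4ra (-2.39) and Il10rb (-1.56) were lower as well. Ifnar2, the other chain of the type I interferon receptor, did not pass under TMM scaling (0.12, edgeR adjusted p = 0.176). Among 15 other SOCS genes and negative regulators, 9 were higher in Cadict and 5 lower, with a median of 0.63 beside -0.13 for all genes. Under library totals 1 was higher and 9 lower, with a median of -0.33, again above that of all genes at -1.08. Ptpn11, a phosphatase, was at 171.0 ± 3.69 CPM in Ctrl and 374.8 ± 21.3 in Cadict (1.13, adjusted p = 6.7e-12), whereas Pias3 (-2.42) and Socs4 (-1.24) were lower, so Socs1 and Socs3 did not move with most of this list under TMM scaling.

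Downstream, 10 of the 11 interferon-inducible GTPases tested were lower in Cadict than in Ctrl, with all 11 log2 fold changes below 0 and a median of -2.99, where 47.1% of all genes were lower and the median gene was at -0.13. In Cu-Cys 10 of 11 were lower as well, with a median of -1.68, where 22.4% of all genes were lower and the median gene was at 0.01. The medians fell on Tgtp1 in Cadict (0.722 CPM in Ctrl, 0.0846 in Cadict) and Gbp9 in Cu-Cys (0.796 in Ctrl, 0.244 in Cu-Cys), both near the floor. Genes so low can pass the filter on low counts only through Ctrl, where they were highest. The counts of lower GTPases therefore do not test a fall of the family. Irgm1, the only one above the level set for naming, was at 16.5 ± 1.40 CPM in Ctrl, 13.6 ± 1.5 in Cu-Cys and 4.002 ± 0.689 in Cadict (-2.04 in Cadict, adjusted p = 8.2e-10). The 19 targets of IRF1 and interferon gamma tested were mixed in Cadict, with 10 lower, 5 higher and 4 not passing and a median of -0.58, beside 47.1% of all genes lower and 40.6% higher. Under library totals 15 of the 19 were lower and 2 higher in Cadict, with a median of -1.53. Of all 11949 genes, 8730 were lower and 2161 higher under that scaling, with the median gene at -1.08. In Cu-Cys 11 were lower, 1 higher and 7 not passing under TMM scaling, beside 22.4% of all genes lower and 22.6% higher. The median of these targets in Cu-Cys was -0.40, with the median gene at 0.01. Tap1, the peptide transporter of antigen presentation, was at 21.5 ± 1.09 CPM in Ctrl and 3.21 ± 0.489 in Cadict (-2.74, adjusted p = 2.6e-12). B2m, the light chain of MHC class I, was higher in Cadict (1.89, adjusted p = 6.2e-14), as was the tryptophanyl-tRNA synthetase gene Wars (2.78, adjusted p = 2.7e-16), both also under library totals (0.94 and 1.83). The lower level of Irf1 in Cadict was therefore accompanied by lower levels of some genes in this list of targets and higher levels of others. The list mixes targets of IRF1 and of interferon gamma, and which of them IRF1 regulates in these cells was not tested.

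**Figure D5:**
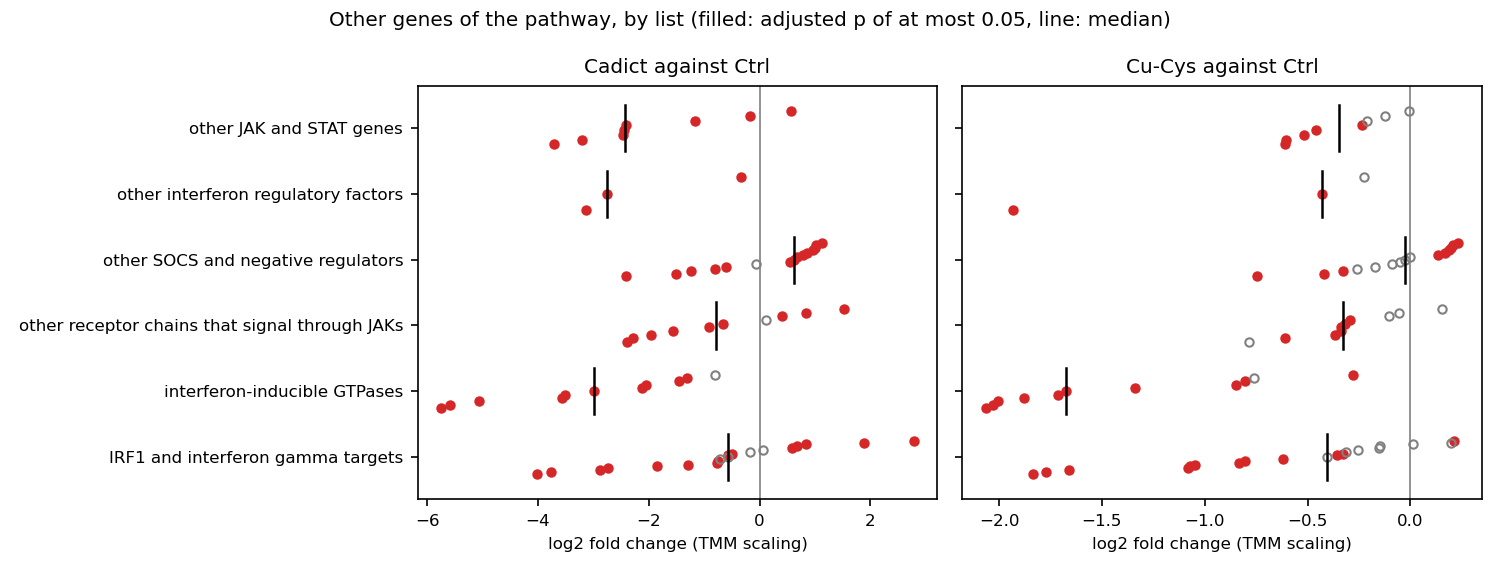
Log2 fold changes against Ctrl (TMM scaling) of the other pathway genes tested, 1 point per gene, in Cadict (left) and Cu-Cys (right), with filled points for an adjusted p of at most 0.05 and a line at the median of each list. The GTPases, several of them near the floor of detection, lie below 0 in both treatments (medians -2.99 and -1.68). The negative regulators have a median of 0.63 in Cadict, which was -0.33 under library totals, where the median gene was at -1.08.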

How the data were processed

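Poly(A)-selected RNA of 9 MC38 libraries was sequenced (Illumina Novaseq in the study's methods, DNA nanoballs in the labels). The authors deposited expected counts per gene, not normalized, with FPKM and TPM values. Their processing notes name HISAT2 2.1.0, Bowtie2 2.3.4.3 and RSEM 1.3.1 and the builds GRCm39 and GRCh38.p13, without roles, so no gene coordinates are printed from the files. The authors' size-factor-normalized counts and group averages were not used. Library names written CC and CCGE in the table were matched to Cu-Cys and Cadict.

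Counts were rounded, filtered with filterByExpr, scaled by TMM and fitted for all 9 libraries in edgeR 4.0.16 (R 4.3.3) with glmQLFit and glmQLFTest, without covariates. The study names the DESeq package. Intervals are 95% and n is 3 libraries per group. All groups share 1 estimate of the spread. The fit was tested on simulated data. Alternatives used DESeq2 1.42.0, limma 3.58.1 on log2 of FPKM or TPM plus 1 or 0.1, other filters, and fits without each library. Overlap with other genes was computed on GRCm38 transcripts, and promoters came from RefSeq (GRCm38.p6), with all 10 genes matched.

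The 10 genes, the pathway lists and the tests were chosen with earlier results of these data known. From each list, the text names the 3 genes with the largest absolute log2 fold change in Cadict against Ctrl among those passing 0.05 with a mean of at least 10 CPM. Ifnar2, Irf7, Tgtp1 and Gbp9 are named besides, to give limits of their lists. For Irf1 and Ifngr1, the 3 nearest genes are named. A gene that this rule selects is not reported here.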

Additional observations from a re-analysis of the deposited data

How the results depend on the processing

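Of the log2 fold changes of the 10 genes recomputed under the alternatives, 519 kept their direction and side of the threshold, 21 lost the call, 1 gained it and 23 reversed; the cause was not tested beyond the scaling itself. The number lower was 7 to 9 for Cadict and 5 to 8 for Cu-Cys, each set against Ctrl, and 6 to 9 between the treatments. The number higher in Cadict against Ctrl, 2 by TMM, was 0 under library totals and by limma on FPKM or TPM with either pseudocount, and 1 with no filter, with at least 10 counts in every library, with the replicate block and by the DESeq2 Wald test; it was 1 to 2 without each library. The number higher in Cadict against Cu-Cys, 1 by TMM, was 0 under library totals and by limma on FPKM and TPM. In the order library totals, FPKM with pseudocounts 1 and 0.1, TPM with pseudocounts 1 and 0.1, Irf2 in Cadict against Ctrl was -0.14, -0.15, -0.15, -0.48 and -0.50, Irf8 in Cadict against Ctrl was -0.11, -0.029, -0.12, -0.13 and -0.42, Irf8 in Cadict against Cu-Cys was -0.58, -0.14, -0.46, -0.26 and -0.74, and Socs1 in Cu-Cys against Ctrl was -0.025, -0.057, -0.067, -0.13 and -0.14. Irf2 in Cadict against Cu-Cys was -0.21 and -0.22 on TPM. Without each library, Socs1 in Cu-Cys against Ctrl ranged from -0.011 to 0.10, the log2 ratio of Ifngr1 to Ifngr2 in Cu-Cys against Ctrl from -0.037 to 0.017 and that of Irf9 to Irf1 from -0.059 to 0.16.

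Over all genes, Cadict against Ctrl had 4857 higher and 5627 lower, but 2161 and 8730 under library totals, and Cadict against Cu-Cys 4819 and 5444, but 2062 and 8600; Cu-Cys against Ctrl had 2701 and 2680, but 1849 and 3447. Limma gave 2427 and 8977 (FPKM) and 1692 and 9918 (TPM) with a pseudocount of 1 in Cadict against Ctrl, 1576 and 3170 and 814 and 3358 in Cu-Cys against Ctrl, and 2314 and 8609 and 1625 and 9346 in Cadict against Cu-Cys. The 2-fold threshold was met in Cu-Cys against Ctrl by 196 genes, but by 119 with at least 10 counts in every library and by 64 (FPKM) and 101 (TPM) with limma. Same-numbered libraries showed little shared deviation (correlations of -0.22 to 0.14 over 8551 genes, 2 of 9 above 0.1). With 3 libraries per group this cannot exclude that they were prepared together, and the main fit did not pair them. With the replicate block Irf8 in Cadict against Ctrl was 0.84 (edgeR adjusted p = 0.0557). Depth limits Irf8 in every group and Socs1 in Cadict.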
